A study of Homo sapiens with 12 samples.

Results

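Uracil is cut out of DNA by a small set of enzymes, and mispaired bases are removed by a second one. The mRNA levels of 8 genes of these pathways were followed in HCT116 cells: the uracil-DNA glycosylases *UNG*, *TDG*, *SMUG1* and *MBD4*, the downstream base excision factors *APEX1* and *XRCC1*, and the mismatch repair genes *MSH6* and *PMS2*. They were taken by gene symbol from the 60580 symbols of the count files, and all 8 were among the 16123 genes that reached at least 20 counts in at least 1 library and were tested. HCT116 is an established human colorectal carcinoma line with wild-type p53 that is known to be deficient in mismatch repair. *WT* cells were set beside cells that lack the whole family (*miR-34a/b/c-KO*, called KO cells from here on), in which CRISPR/Cas9 had removed the stretches of both host genes that code for the mature microRNAs, and both were treated with the uracil analog 5-fluorouracil (5-FU, 4 µM) or with its solvent DMSO for 48 h. Both genotypes derive from single-cell clones that had received the Cas9 plasmid, the *WT* clones without guide RNAs. The study describes the libraries of a group as biological replicates, but the sources used here do not say which clone gave which library, so the p-values measure the spread between these libraries. There were 3 libraries each for *WT* cells with DMSO, KO cells with DMSO and KO cells with 5-FU, and 2 for *WT* cells with 5-FU, because the file labelled as replicate 1 of that group held the same counts as *WT* DMSO replicate 3 (0 of 60580 genes differed) and was left out.

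5-FU inhibits thymidylate synthase, so that the dUTP pool grows at the expense of dTTP and both uracil and fluorouracil enter the DNA. *UNG* encodes the main glycosylase that excises uracil, in a nuclear form from an upstream promoter and a mitochondrial form from a downstream one, which gene counts cannot tell apart. TDG and MBD4 act on uracil and thymine opposite guanine, and SMUG1 on uracil and 5-hydroxymethyluracil. The abasic site left behind is cut by the endonuclease APEX1, and XRCC1 is the scaffold for the enzymes that fill and ligate the gap. MSH6 belongs to the heterodimer that recognises base mismatches, and PMS2 carries the endonuclease that starts excision of the strand. miR-34a and miR-34b/c are p53-induced microRNAs that repress mRNAs through sites in their 3′ UTRs.

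The 11 libraries used held between 22831415 and 39064210 counts. *CDKN1A*, a direct p53 target, was at 167 ± 1.18 CPM (SD, n = 3; CPM are counts relative to the library total, scaled by upper quartile) in *WT* cells with DMSO and at 2077 ± 143 CPM (n = 2) with 5-FU, and at 469 ± 17.5 and 2479 ± 51.9 CPM (n = 3 each) in the KO cells. The hairpin genes *MIR34A*, *MIR34B* and *MIR34C* had 0 counts in all 11 libraries, and the host gene *MIR34AHG* (4.83 CPM in *WT* cells with DMSO, 16.2 with 5-FU, and 22.2 and 64.6 in the KO cells) lies largely outside the deleted part, so that no count here checks the deletion. The epithelial marker *EPCAM* ranged from 296 to 442 CPM, *CDH1* from 106 to 208 CPM and *KRT8* from 2310 to 6090 CPM. Of 6 epithelial markers, 4 rose and 1 (*EPCAM*) fell with 5-FU at edgeR FDR under 0.05, in each genotype. Of the colon markers *CDX2* ranged from 19.8 to 26.3 CPM, *CDH17* and *VIL1* reached at most 1.39 and 2.21 CPM, and *CDX1* had 0 counts. Of 9 markers of other cell types, 7 (among them the leukocyte marker *PTPRC* and the fibroblast marker *DCN*) had at most 9 counts in any library. The other two were the collagen gene *COL1A1* (21.7 to 70.5 CPM) and the macrophage marker *CD68* (15.1 to 36.2 CPM). Both rose with 5-FU, by 1.13 and 1.03 on the log2 scale in *WT* cells and by 0.55 and 0.82 in KO cells, and *COL1A1* was higher in KO cells with DMSO (0.93) and with 5-FU (0.36; all at edgeR FDR under 0.05). The summed level of the 9 was 41.18 to 43.31 CPM in *WT* cells with DMSO, 83.4 to 96.46 CPM with 5-FU, and 65.47 to 69.23 and 103 to 104.9 CPM in KO cells, and its part in the results was not tested.

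Sequences are shown for the microRNAs and for the words in 3′ UTRs of the 8 genes that match their seeds. The seed is the part by which these microRNAs are known to pair with mRNAs. The mature miRNAs (RefSeq, GRCh38.p14) are hsa-miR-34a-5p at chr1:9151735-9151756 (minus strand) and hsa-miR-34b-5p at chr11:111512950-111512972 (plus strand). miR-34c-5p is named only. Capitals mark the seed, bases 2 to 8.
hsa-miR-34a-5p: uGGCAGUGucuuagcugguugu
hsa-miR-34b-5p: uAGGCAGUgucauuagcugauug
The seeds differ by a shift of 1 base. The word CACTGCC, which pairs with bases 2 to 8 of miR-34a-5p, was found in the 3′ UTR of *UNG* alone among the 8 genes, 461 bases into a UTR of 1023 bases in the annotated canonical transcript. The same word occurred in 15.63% of the 3′ UTRs of 19550 genes. The word that pairs with the miR-34b-5p seed, ACTGCCT (13.92% of genes), was in none of the 8. The shorter core ACTGCC (30.57% of genes) was found a second time in *UNG*, at base 767, and in none of the other 7. The 2 sites in *UNG* are at chr12:109110419-109110447 and chr12:109110725-109110752 (GRCh38, plus strand), with the matched word in capitals.
UNG 3′ UTR, 7 bases matched: tctgccagttcCACTGCCcccttgatctt
UNG 3′ UTR, 6 bases matched: aggcagcacagACTGCCaagtactgttt
A match is a description of the letters, and neither binding nor repression was measured.

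Promoter windows from 250 bases before to 50 bases after the start site were given for 7 of the 8 genes (RefSeq, GRCh38.p14), *SMUG1* being the exception. They were searched on both strands for 4 E2F words (TTTGGCGC, TTTCCCGC, TTTGCCGC and TTTCGCGC), for the CHR words TTTGAA and TTCGAA, and for the CCAAT box, since E2F and CHR elements are known from promoters of genes that are active in S phase and G2/M. The number of windows was 4 for *MSH6*, 2 each for *UNG* and *PMS2*, and 1 each for *TDG*, *MBD4*, *APEX1* and *XRCC1*. An E2F word was found in 1 window of *UNG*, 1 of *MSH6* and both of *PMS2*. None was found in *TDG*, *MBD4*, *APEX1* and *XRCC1*, for which fewer windows were searched. E2F words occurred in 3.315% of 35116 windows and in 3.992% of 27305 genes. In *UNG* the word TTTGCCGC began 63 bases before the downstream start site, and in *MSH6* TTTCCCGC began 3 bases after the start site of window 1. In *PMS2* TTTGCCGC began 43 bases before the start site of window 1 and 100 bases before that of window 2. These windows overlap, and it is the same word in both. The windows with an E2F word are printed for *UNG* (chr12:109097922-109098221, plus strand) and *MSH6* (chr2:47782895-47783194, plus strand), and window 1 for *PMS2* (chr7:6009057-6009356, minus strand). That of *APEX1* (chr14:20454976-20455275, plus strand) is printed beside them as a window without one. Capitals mark any of the words searched, on either strand.
UNG: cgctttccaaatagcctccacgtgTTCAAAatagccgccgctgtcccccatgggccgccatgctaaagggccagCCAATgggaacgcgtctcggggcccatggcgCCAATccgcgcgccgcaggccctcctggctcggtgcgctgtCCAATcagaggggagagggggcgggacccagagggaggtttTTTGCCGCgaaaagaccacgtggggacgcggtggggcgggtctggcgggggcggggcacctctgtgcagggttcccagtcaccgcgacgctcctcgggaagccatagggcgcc
MSH6: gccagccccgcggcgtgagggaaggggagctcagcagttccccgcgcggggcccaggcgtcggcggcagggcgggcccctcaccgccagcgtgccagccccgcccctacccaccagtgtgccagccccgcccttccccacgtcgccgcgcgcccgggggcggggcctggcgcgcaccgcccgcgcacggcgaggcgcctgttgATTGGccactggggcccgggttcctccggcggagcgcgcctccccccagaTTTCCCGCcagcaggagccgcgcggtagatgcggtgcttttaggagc
PMS2: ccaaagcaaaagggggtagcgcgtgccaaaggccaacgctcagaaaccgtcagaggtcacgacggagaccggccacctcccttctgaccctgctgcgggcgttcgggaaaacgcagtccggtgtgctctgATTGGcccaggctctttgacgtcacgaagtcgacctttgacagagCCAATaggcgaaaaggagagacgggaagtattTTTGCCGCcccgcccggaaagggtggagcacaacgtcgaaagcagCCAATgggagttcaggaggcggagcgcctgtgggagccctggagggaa
APEX1: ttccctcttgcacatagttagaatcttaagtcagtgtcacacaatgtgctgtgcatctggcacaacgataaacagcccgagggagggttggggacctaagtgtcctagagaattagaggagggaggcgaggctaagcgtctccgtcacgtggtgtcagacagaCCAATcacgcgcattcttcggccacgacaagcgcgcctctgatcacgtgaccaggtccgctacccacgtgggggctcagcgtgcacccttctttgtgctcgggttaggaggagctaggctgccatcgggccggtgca
A CHR word was found in the downstream *UNG* window and in *XRCC1* (16.35% of windows hold one), and a CCAAT box in at least 1 window of each of the 7 genes (39.72% of genes hold one). *PMS2*, whose window carries an E2F word and 3 CCAAT boxes, had nearly level mRNA in the 4 groups, whereas *UNG* and *MSH6* varied most.

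Compared per length (counts divided by the merged exon bases of the gene and scaled to the same sum in each library, TPM-like), *APEX1* was the most abundant of the 8 mRNAs in every group, with 679 ± 21.9 (SD, n = 3) in *WT* cells with DMSO. *UNG* was next in every group (184 ± 6.98 in the same cells) followed by *XRCC1* (68.5 ± 2.15). *TDG* was at 27.4 ± 1.58, *PMS2* at 17.4 ± 0.359, *SMUG1* at 15.2 ± 0.362 and *MBD4* at 13.5 ± 1.10. The place of *MSH6* depended on the length used, with 27.3 ± 0.0878 over its merged exons and 58.6 over its canonical transcript, because the annotated merged exons (17722 bases) are far longer than that transcript (4265 bases). *SMUG1* and *PMS2* changed places when the longest transcript was used (23.2 and 19.6 in *WT* cells with DMSO). The 4 glycosylase mRNAs together summed to 240 ± 7.79 in *WT* cells with DMSO, 191 ± 2.23 in KO cells with DMSO, 174 ± 7.32 in KO cells with 5-FU and 142 ± 5.91 (n = 2) in *WT* cells with 5-FU, and no library of one group overlapped with another group in this sum. *UNG* made up 76.7 ± 0.418% of it in *WT* cells with DMSO and 67.0 ± 0.616% in KO cells with DMSO, and 56.6 ± 2.55% (n = 2) and 57.5 ± 1.51% in the respective cells with 5-FU. Per canonical transcript its share was 83.3% in *WT* and 75.9% in KO cells with DMSO, and 65.5% and 67.5% with 5-FU. The shares after 5-FU overlapped between the genotypes, the shares under DMSO did not.

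**Figure D1:**
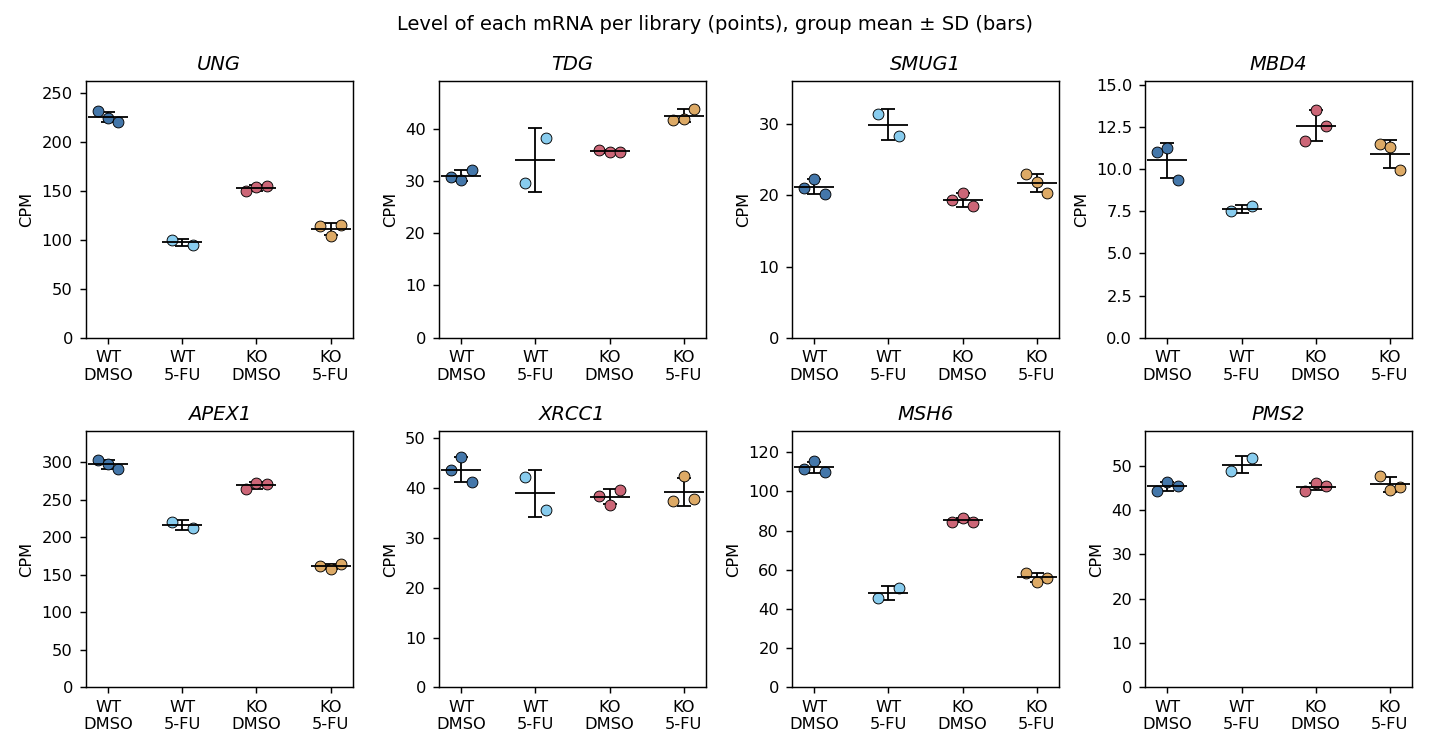
CPM (linear axis from 0) of the 8 mRNAs in the 11 libraries of the 4 groups. Points are libraries, and bars give the mean and SD. *UNG* and *MSH6* are highest in all 3 *WT* DMSO libraries and lowest in both *WT* 5-FU libraries, *APEX1* is lowest in the 3 KO 5-FU libraries, and *XRCC1* and *PMS2* are nearly level.

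A gene was called when its edgeR false discovery rate (FDR, over all 16123 genes) was under 0.05 and its fold change over 1.5. In *WT* cells, 5-FU lowered *UNG* and *MSH6* past both thresholds (2 of 8 called lower, against 9.38% of all genes tested), and *MBD4* and *APEX1* also fell at FDR under 0.05 alone (4 of 8 lower, against 28.3%). *SMUG1* and *PMS2* were higher at that FDR (2 of 8, against 31.9%). In KO cells, 5-FU lowered *APEX1* and *MSH6* past both thresholds (2 of 8, against 12% of all genes), *UNG* fell at FDR under 0.05 alone (3 of 8 lower, against 33.8%), and *TDG* rose (1 of 8, against 26.6%). The libraries of the groups did not overlap for 6 of 8 members in *WT* cells and 5 of 8 in KO cells, against 68.8% of all genes in each. With 1 RUVg factor, which lay almost wholly between the treatments (98.2% of its variance), no member was called for 5-FU in either genotype. Of all genes, that fit called 3 higher and 0 lower in *WT* cells, and 1 higher and 0 lower in KO cells. With 8 members these shares are a description and rest on few genes. Some lie near those of all genes and others do not, which was not tested.

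Between the genotypes no member was called, under either treatment, by edgeR with both thresholds. With DMSO 14.1% of all genes were called, and at FDR under 0.05 alone *UNG*, *MSH6* and *APEX1* were lower (3 of 8, against 21.9%) and *MBD4* was higher (1 of 8, against 24.5%). DESeq2, also with both thresholds, called 1 member there, *UNG*, and an unadjusted p under 0.05 was reached by 6 of the 8, beside 8503 of all 16123 genes. With 5-FU 18.1% of all genes were called, and at FDR under 0.05 alone *UNG*, *TDG*, *MBD4* and *MSH6* were higher in KO cells (4 of 8, against 21.6%) and *SMUG1* and *APEX1* were lower (2 of 8, against 28%). DESeq2 called 0 members there, beside 1339 genes higher and 1332 lower, and the unadjusted p was under 0.05 for 7 of the 8 and for 8975 of all genes. The groups did not overlap for 6 of 8 members with DMSO (57.5% of all genes) and 7 of 8 with 5-FU (63%).

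The response to 5-FU itself differed between the genotypes for *UNG* and *MSH6*, which were called in the interaction test with a smaller fall in KO cells (2 of 8 higher, against 3.42% of all genes with both thresholds and 10.1% at FDR under 0.05 alone). *APEX1* and *SMUG1* had interaction terms of the opposite sign at FDR under 0.05 alone (2 of 8, against 16%). Of all genes, 551 were called with a higher and 1073 with a lower response in KO cells, a split that moved to 676 and 844 with TMM factors and to 726 and 785 with DESeq2's size factors in edgeR. The interaction terms of *UNG* and *MSH6* were larger, not smaller, with those factors (0.80 and 0.68 on the log2 scale with TMM). The 5 comparisons share libraries with each other, so that they are not independent of one another.

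**Figure D2:**
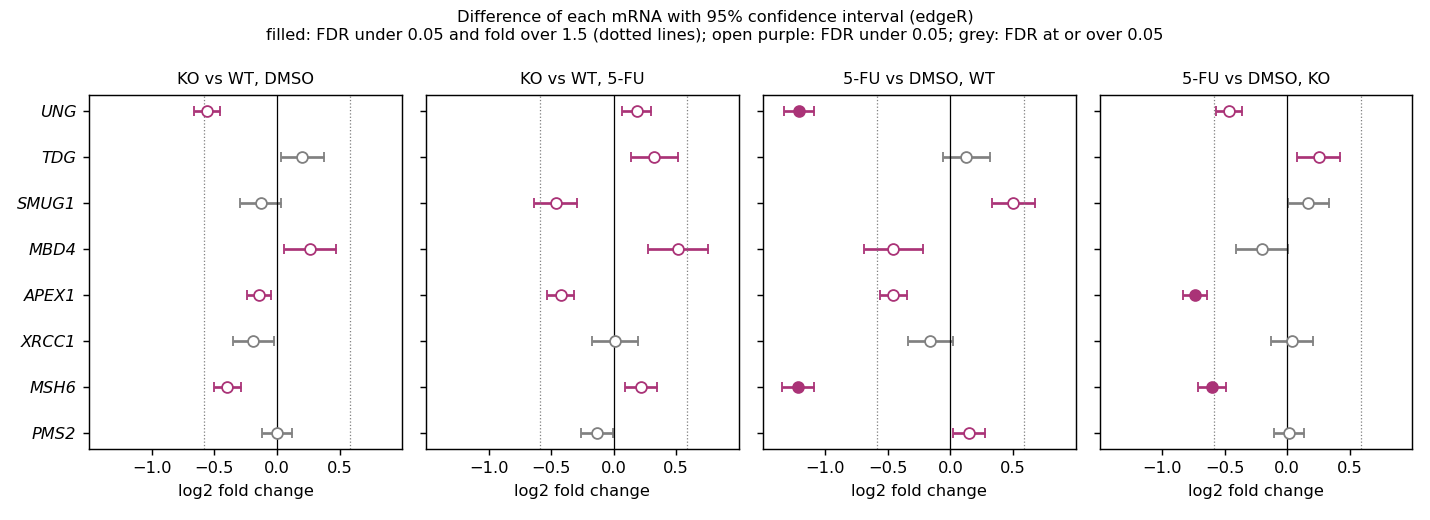
Log2 fold change (x axis) of the 8 mRNAs with its 95% confidence interval in the 4 pairwise comparisons, from the edgeR fit over 11 libraries. Filled points passed FDR 0.05 and a fold of 1.5 (dotted lines), open purple points FDR 0.05 only, and grey points neither. *UNG* and *MSH6* lie at -1.21 and -1.22 for 5-FU in *WT* cells, and *APEX1* at -0.74 for 5-FU in KO cells.

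*UNG* (ENSG00000076248.12, chr12:109097597-109126725, GRCh38) was at 231.5, 224.1 and 220.7 CPM in the 3 *WT* DMSO libraries and at 99.93 and 95.01 CPM in the 2 *WT* 5-FU libraries. In KO cells it was at 149.5, 153.7 and 155.4 CPM with DMSO and at 114.0, 103.6 and 114.9 CPM with 5-FU. No group overlapped with another, and the order was *WT* DMSO, KO DMSO, KO 5-FU and *WT* 5-FU, with 2.31-fold between the first and the last mean. 5-FU thus lowered *UNG* in *WT* cells (log2 fold change -1.21 ± 0.0564, SE; -56.8%; edgeR FDR = 2.84e-11). In KO cells the fall was smaller, at -0.46 ± 0.0493 (-27.5%, edgeR FDR = 5.56e-07). The difference between these responses was 0.74 ± 0.0739 (95% confidence interval 0.59 to 0.90, edgeR FDR = 3.41e-06). With DMSO *UNG* was lower in KO cells (-32.2%, log2 fold change -0.56 ± 0.0486, edgeR FDR = 1.28e-07), which is short of 1.5-fold and passes it with DESeq2's size factors (-0.59). With 5-FU it was higher in KO cells by 13.6% (0.18 ± 0.0554, edgeR FDR = 0.0113), a difference that was not past the threshold when only these groups were fitted (FDR = 0.0612) or without KO 5-FU replicate 1 or 3 (FDR = 0.0588 and 0.0514).

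*MSH6* (ENSG00000116062.19, chr2:47695530-47810063) followed the same order of groups. It was at 111.2, 115.5 and 110.1 CPM in *WT* cells with DMSO and at 45.8 and 50.7 CPM with 5-FU, and at 84.6, 86.4 and 84.6 CPM and then 58.5, 53.7 and 56.0 CPM in KO cells. The groups did not overlap, and the means spanned 2.33-fold. 5-FU lowered it in *WT* cells (-57.1%, log2 fold change -1.22 ± 0.0601, edgeR FDR = 5.74e-11) and in KO cells (-34.2%, -0.60 ± 0.0530, edgeR FDR = 5.87e-08). The latter lay close to the fold threshold and did not pass it with TMM factors (-0.56), with DESeq2 (-0.55) or without KO 5-FU replicate 2 (-0.57), each with an FDR under 0.05. The interaction term was 0.62 ± 0.0792 (0.45 to 0.78, edgeR FDR = 4.11e-05), and was short of 1.5-fold without *WT* 5-FU replicate 2 (0.55) or KO 5-FU replicate 1 (0.58). With DMSO *MSH6* was lower in KO cells (-24.1%, -0.40 ± 0.0515, edgeR FDR = 1.12e-05) and with 5-FU higher by 16.4% (0.22 ± 0.0600, edgeR FDR = 0.00643), the last not past the threshold when only these groups were fitted (FDR = 0.0528). The difference with DMSO was lost with 1 RUVg factor (-0.14, FDR = 0.55), and the interaction term was then short of 1.5-fold (0.43, FDR = 0.0262). *MSH6* shares 4022 annotated exon bases with *FBXO11* on the opposite strand, and the sources used here do not state whether strand was used in counting. *FBXO11* itself changed by -0.25 ± 0.0772 with 5-FU in *WT* cells and by -0.35 ± 0.0695 in KO cells, with an interaction term of -0.10 (edgeR FDR = 0.501).

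Most genes of a list of S phase genes were lower, as *UNG* and *MSH6* were, with 5-FU in *WT* cells and in KO cells with DMSO, but not with 5-FU in KO cells. Of 20 S phase genes (the *MCM2* to *MCM7* helicase, *GINS*, *RRM1*, *RRM2*, *TYMS* and others), 17 were lower with 5-FU in *WT* cells at FDR under 0.05 and 0 were higher, with a median log2 fold change of -0.98 beside 0.03 for all genes tested. In KO cells 7 were higher and 8 lower, with a median of 0.08 beside -0.06. Of all genes, 31.9% were higher and 28.3% lower with 5-FU in *WT* cells, and 26.6% and 33.8% in KO cells. With DMSO 18 of 20 were lower in KO cells than in *WT* cells and 0 higher (against 21.9% and 24.5% of all genes), with a median of -0.40. The summed level of the list ranged from 3850 to 4197 CPM in *WT* cells with DMSO, 2420 to 2437 CPM in *WT* cells with 5-FU, 3007 to 3087 CPM in KO cells with DMSO and 3126 to 3179 CPM in KO cells with 5-FU. The sum was not lower with 5-FU in KO cells, where *UNG* and *MSH6* fell, but its genes parted there. *RRM2* rose from 376.3 to 761 CPM, while each of *MCM2* to *MCM7* fell at edgeR FDR under 0.05 (from -0.19 for *MCM4* to -0.93 for *MCM6*). In bulk RNA, fewer cells in S phase and less of these mRNAs per cell cannot be told apart, and the part of the cell cycle in the levels of *UNG* and *MSH6* was not tested.

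*APEX1* (ENSG00000100823.12, chr14:20455191-20457772), the most abundant of the 8, had another order of groups. It was at 303.7, 297.3 and 291.1 CPM in *WT* cells with DMSO, at 264.0, 272.3 and 271.5 CPM in KO cells with DMSO, at 220.9 and 212.0 CPM in *WT* cells with 5-FU and at 161.6, 157.7 and 164.8 CPM in KO cells with 5-FU. The 4 groups did not overlap. The change with 5-FU was -27.2% in *WT* cells (log2 fold change -0.46 ± 0.0515, edgeR FDR = 1.14e-06) and -40.1% in KO cells (-0.74 ± 0.0461, edgeR FDR = 9.22e-10), so that here the larger fall was in the cells without miR-34. The difference of the responses was -0.28 ± 0.0684 (-0.43 to -0.14, edgeR FDR = 0.007). It became smaller with TMM factors (-0.22) and with DESeq2's size factors in edgeR (-0.20, FDR = 0.0461). With 5-FU *APEX1* was lower in KO than in *WT* cells (-25.4%, -0.42 ± 0.0509, edgeR FDR = 4.9e-06). With DMSO the difference was -9.43% (-0.14 ± 0.0456, edgeR FDR = 0.017), and it was not past the threshold without *WT* DMSO replicate 1 (FDR = 0.0735) or KO DMSO replicate 1 (FDR = 0.0651). With 1 RUVg factor this difference (FDR = 0.419) and the interaction term (-0.26, FDR = 0.164) were not past the threshold.

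Ratios of 2 genes within a library do not depend on the scaling between libraries. The number of *UNG* counts per *APEX1* count was 0.758 ± 0.00427 (SD, n = 3) in *WT* cells with DMSO and 0.450 ± 0.00305 (n = 2) with 5-FU, but 0.568 ± 0.00426 and 0.686 ± 0.0262 (n = 3 each) in KO cells. *UNG* mRNA thus fell relative to *APEX1* mRNA with 5-FU in *WT* cells and rose relative to it in KO cells, with no overlap between the groups. The number of *MSH6* counts per *PMS2* count was 2.47 ± 0.0467 and 0.959 ± 0.0305 in *WT* cells with DMSO and 5-FU, and 1.88 ± 0.0228 and 1.22 ± 0.0183 in KO cells. The 4 groups did not overlap here either. The number of *UNG* counts per *MSH6* count varied little, with group means between 1.79 and 2.03. A two-sided exact permutation test cannot go below p = 0.1 with 3 against 3 libraries or 0.2 with 3 against 2, so these ratios are given as values.

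**Figure D3:**
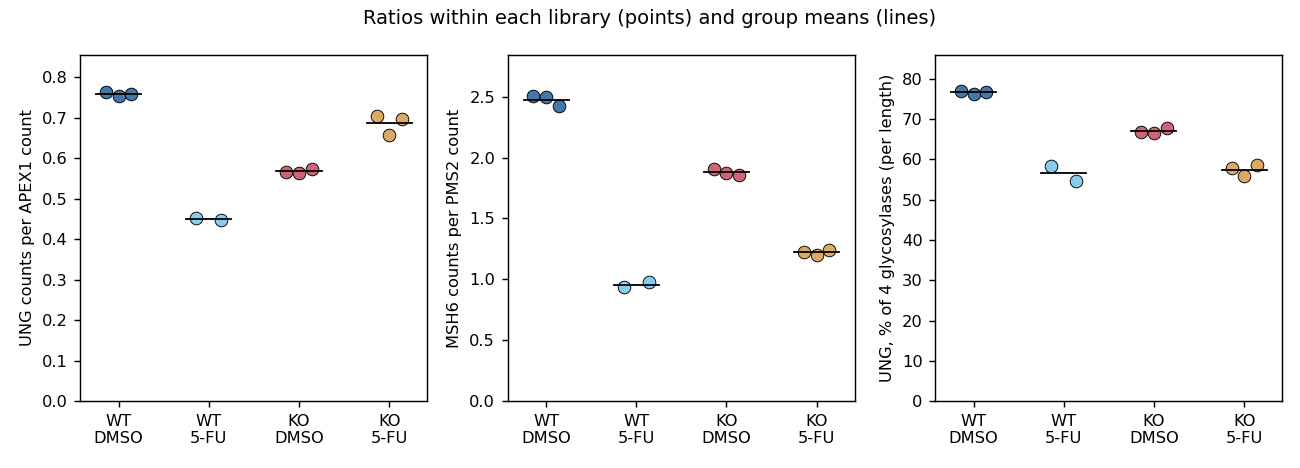
*UNG* counts per *APEX1* count, *MSH6* counts per *PMS2* count, and the share of *UNG* in the length-scaled sum of *UNG*, *TDG*, *SMUG1* and *MBD4* (percent), in each of the 11 libraries (points) with group means (lines) and axes from 0. With 5-FU the *UNG* to *APEX1* ratio goes down from 0.758 to 0.450 in *WT* cells and up from 0.568 to 0.686 in KO cells.

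The other glycosylases were expressed at far lower levels. *SMUG1* and *TDG* did not follow *UNG*, and *MBD4* fell with 5-FU in *WT* cells as *UNG* did but was not lower in KO cells with DMSO. *SMUG1* (ENSG00000123415.16, chr12:54121277-54189008) was at 21.1, 22.4 and 20.2 CPM in *WT* cells with DMSO and at 31.5 and 28.4 CPM with 5-FU, a rise of 41.4% without overlap (log2 fold change 0.50 ± 0.0811, edgeR FDR = 5.77e-05). In KO cells it was at 19.3, 20.4 and 18.5 CPM with DMSO and at 22.97, 21.84 and 20.37 CPM with 5-FU, where the groups overlapped (0.17 ± 0.0768, edgeR FDR = 0.0719). That rise did pass the threshold with TMM factors (FDR = 0.0255) or DESeq2 (FDR = 0.0277). With 5-FU *SMUG1* was lower in KO than in *WT* cells (-27.4%, -0.46 ± 0.0815, edgeR FDR = 0.000204), and with DMSO the difference was -8.55% (FDR = 0.183). The interaction term of -0.33 ± 0.112 (edgeR FDR = 0.0375) was not past the threshold with TMM factors (FDR = 0.0799), with DESeq2 (FDR = 0.139), or when any one of 7 libraries was left out (*WT* DMSO replicates 1 and 3, *WT* 5-FU replicate 2, KO DMSO replicates 1 and 2 and KO 5-FU replicates 2 and 3, with FDR from 0.0585 to 0.119). The number of *UNG* counts per *SMUG1* count was 10.6 in *WT* cells with DMSO and 3.26 with 5-FU, and 7.90 and 5.12 in KO cells.

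*TDG* (ENSG00000139372.15, chr12:103965822-103988874), which is also known for removing oxidised 5-methylcytosine, was highest in KO cells with 5-FU. It was at 30.7, 30.2 and 32.1 CPM in *WT* cells with DMSO and at 36.0, 35.6 and 35.5 CPM in KO cells with DMSO. With 5-FU it was at 41.6, 41.9 and 43.9 CPM in KO cells, a rise of 19.0% (log2 fold change 0.25 ± 0.0801, edgeR FDR = 0.0127). The 2 *WT* 5-FU libraries lay apart, at 29.6 and 38.3 CPM, and overlapped with both DMSO groups. The change with 5-FU in *WT* cells accordingly depended on the library, with 0.13 ± 0.0893 (edgeR FDR = 0.236) from both, 0.30 without replicate 2 and -0.07 without replicate 3. The higher level in KO cells with 5-FU (0.33 ± 0.0891, edgeR FDR = 0.00634) was not past the threshold without *WT* 5-FU replicate 2 (0.15, FDR = 0.0941) and became 0.52 without *WT* 5-FU replicate 3. With DMSO the difference was 0.20 ± 0.0809 (edgeR FDR = 0.0519), the groups did not overlap, and the threshold was passed when only these groups were fitted (FDR = 0.00583). The interaction term of 0.12 ± 0.120 (edgeR FDR = 0.474) likewise became -0.05 without *WT* 5-FU replicate 2 and 0.32 (FDR = 0.0124) without replicate 3.

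*MBD4* (ENSG00000129071.10, chr3:129430947-129440179), a methyl-CpG-binding glycosylase, was the least abundant of the 8 by counts. It was at 11, 11.2 and 9.35 CPM in *WT* cells with DMSO and at 7.48 and 7.81 CPM with 5-FU, and at 11.7, 13.5 and 12.6 CPM and then 11.5, 11.3 and 9.93 CPM in KO cells. 5-FU lowered it in *WT* cells (-27.1%, log2 fold change -0.46 ± 0.112, edgeR FDR = 0.00213). The difference in KO cells was -0.20 ± 0.0976 (edgeR FDR = 0.0811), and the interaction term of 0.25 was not past the threshold (edgeR FDR = 0.224), so that a different response of the genotypes was not shown. With 5-FU *MBD4* was 42.8% higher in KO cells (0.51 ± 0.112, edgeR FDR = 0.00121), without overlap. The difference with DMSO (0.26 ± 0.0972, edgeR FDR = 0.0363) was not past the threshold with DESeq2 (FDR = 0.094) or without *WT* DMSO replicate 3 (FDR = 0.181), KO DMSO replicate 2 (FDR = 0.144) or replicate 3 (FDR = 0.0798). *MBD4* shares 279 exon bases with *IFT122*, which changed by -0.49 ± 0.0805 with 5-FU in *WT* cells and by -0.60 ± 0.0735 in KO cells.

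*XRCC1* (ENSG00000073050.12, chr19:43543311-43580473) was at 43.6, 46.2 and 41.3 CPM in *WT* cells with DMSO, at 42.2 and 35.6 CPM in *WT* cells with 5-FU, at 38.5, 36.6 and 39.7 CPM in KO cells with DMSO and at 37.5, 42.5 and 37.9 CPM in KO cells with 5-FU. Each group overlapped with the next in order, and the means spanned 1.14-fold. No comparison passed FDR 0.05. The lowest was that of the genotypes with DMSO (log2 fold change -0.19 ± 0.0771, edgeR FDR = 0.0538), where the groups did not overlap and which passed with TMM factors (FDR = 0.0342) or DESeq2 (FDR = 0.0185). Without *WT* 5-FU replicate 2 the change with 5-FU in *WT* cells (-0.30, FDR = 0.0101) and the interaction term (0.33, FDR = 0.0338) passed as well. The confidence intervals of the change with 5-FU ran from -0.34 to 0.02 in *WT* cells and from -0.13 to 0.20 in KO cells.

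*PMS2* (ENSG00000122512.17, chr7:5970925-6009130) varied least, with 1.11-fold between its highest and lowest group mean. It was at 44.4, 46.3 and 45.5 CPM in *WT* cells with DMSO, at 44.4, 46.1 and 45.5 CPM in KO cells with DMSO, at 47.7, 44.6 and 45.2 CPM in KO cells with 5-FU and at 48.9 and 51.7 CPM in *WT* cells with 5-FU. The *WT* 5-FU libraries lay above the others, by 0.15 ± 0.0614 on the log2 scale against *WT* DMSO (edgeR FDR = 0.0483, short of 1.5-fold). The FDR was no longer under 0.05 with TMM factors (FDR = 0.0759) or with DESeq2 (FDR = 0.128). The same held when any one library outside the *WT* 5-FU group was left out (FDR from 0.0552 to 0.132). Without single libraries the change ran from 0.110 to 0.185. The genotypes with DMSO differed by -0.0013 on the log2 scale with an interval of -0.12 to 0.12. *PMS2* has near-identical copies (*PMS2CL* and the PMS2P pseudogenes) whose reads the counting may have assigned to it or away from it, so that its level is uncertain. *PMS2CL* was at 14.6 ± 1.10 CPM in *WT* cells with DMSO. *MSH6* and *PMS2*, both of mismatch repair, thus parted, with changes of -57.1% and 10.8% with 5-FU in *WT* cells.

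**Figure D4:**
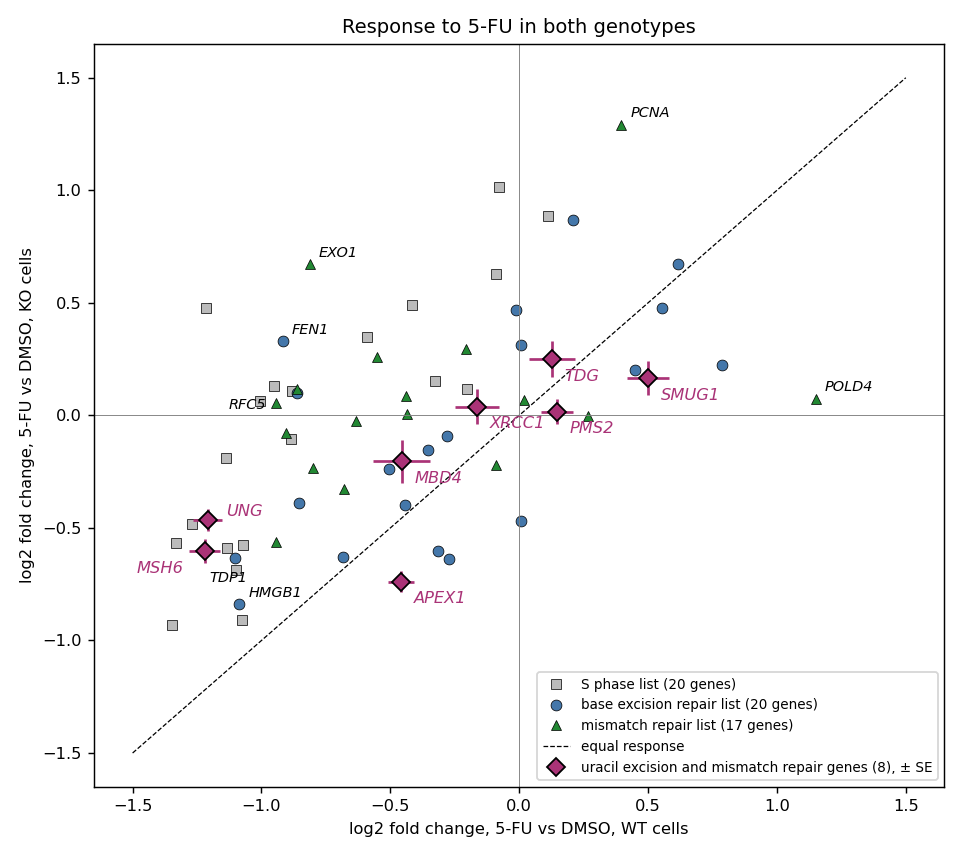
Log2 fold change with 5-FU in *WT* cells (x axis) against that in KO cells (y axis) for the 8 mRNAs (diamonds, ± SE), 20 other base excision genes (circles), 17 other mismatch repair and resynthesis genes (triangles) and 20 S phase genes (squares). The dashed line marks equal responses. *UNG* and *MSH6* lie at the left and above the line (-1.21 and -0.46, -1.22 and -0.60), *APEX1* below it (-0.46 and -0.74).

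Other genes of base excision and single-strand break repair, a list of 20, were described by counts. With 5-FU 4 rose and 11 fell in *WT* cells at FDR under 0.05, to be read beside the shares of all genes given above (median log2 fold change -0.30), and 8 rose and 9 fell in KO cells (-0.12). With DMSO 2 were higher and 10 lower in KO cells (-0.15), and with 5-FU 4 were higher and 6 lower (0.01). The called genes of largest change with 5-FU in *WT* cells were *TDP1*, which removes topoisomerase I from DNA ends (-1.10 ± 0.0735), the chromatin protein gene *HMGB1* (-1.09) and the flap endonuclease gene *FEN1* (-0.92). In KO cells they were the end-joining cofactor *APLF* (0.87), *HMGB1* (-0.84) and *APTX*, which removes AMP from aborted ligation ends (0.67). *APLF* differed most between the genotypes, by 1.54 ± 0.203 with DMSO and 2.20 ± 0.213 with 5-FU, at a low level of 0.831 CPM in *WT* and 2.42 CPM in KO cells with DMSO. The glycosylase gene *NEIL1* was higher in KO cells with DMSO (0.74 ± 0.0699), and with 5-FU *FEN1* was higher (0.85) and the glycosylase gene *NTHL1* lower (-0.64). *FEN1* (1.25 ± 0.0776) and the poly(ADP-ribose) polymerase gene *PARP2* (0.96) were called in the interaction.

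Of 17 other genes of mismatch recognition, excision and resynthesis, 2 rose and 12 fell with 5-FU in *WT* cells (median -0.55), and 4 rose and 4 fell in KO cells (0.05). Of all genes, 31.9% rose and 28.3% fell at FDR under 0.05 in *WT* cells, and 26.6% and 33.8% in KO cells. The counts that follow are likewise to be read beside the shares of all genes given above. With DMSO 1 was higher and 13 lower in KO cells (-0.35), with 5-FU 10 were higher and 2 lower (0.21), and the interaction term was positive for 13 and negative for 1 at FDR under 0.05 (median 0.53, beside -0.09 for all genes). In *WT* cells the called genes of largest change with 5-FU were the polymerase delta subunit gene *POLD4* (1.15 ± 0.0917), the clamp loader gene *RFC5* (-0.95) and the MutL homolog gene *PMS1* (-0.94). In KO cells 2 were called (beside 25.2% of all genes), the sliding clamp gene *PCNA* (1.29 ± 0.0455), a known p53 target, and the exonuclease gene *EXO1* (0.67). The interaction was largest for *EXO1* (1.48 ± 0.123), *POLD4* (-1.08) and *RFC5* (0.999). Between the genotypes *RFC5* was called with DMSO (-0.76 ± 0.0538), and *EXO1* (0.97), *POLD4* (-0.85) and *POLD3* (0.66) with 5-FU. Beside the list medians of -0.55 for 5-FU in *WT* cells and 0.53 for the interaction, *MSH6* was at -1.22 and 0.62 and *PMS2* at 0.15 and -0.13.

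The genes whose log2 CPM followed each member most closely over the 11 libraries were searched among 10355 genes with a mean of at least 10 CPM. The libraries form 4 groups and share their scaling, so that these values describe group patterns. For *UNG* they were *PRC1* (Pearson's r = 0.989), *MCM3* (0.988) and *ADNP2* (0.985), and for *MSH6* *ARHGAP19* (0.996), *TDP1* (0.993) and the checkpoint kinase gene *CHEK1* (0.992). For *APEX1* they were the fatty acid desaturase gene *SCD* (0.996), *PHB2* and *CS* (0.993 each). The closest were *SAMD8* for *TDG* (0.978, then *APPBP2* and *NF1*), *TTC9C* for *SMUG1* (0.975, then *LCN2* and *COTL1*) and *SVIP* for *MBD4* (0.954, then *TRAF2* and *XBP1*). *XRCC1* and *PMS2*, which varied little, had lower highest values, with *MAD2L2* at 0.856 (then *RALY* and *SMARCB1*) and *OTUB2* at 0.906 (then *SAMD9* and *PLRG1*).

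The genes around *UNG*, *MSH6* and *APEX1* on their chromosomes did not move with them. The 20 nearest tested genes of *UNG* had a median log2 fold change of -0.02 between the genotypes with DMSO (8 higher and 12 lower) beside -0.56 for *UNG*, and those of *MSH6* 0.13 (13 higher and 7 lower) beside -0.40. With 5-FU in *WT* cells these medians were -0.04 and -0.10 beside -1.21 and -1.22. For *APEX1*, with 17 tested neighbours, the median with 5-FU in KO cells was 0.12 beside -0.74. The neighbours of *MBD4* did fall with 5-FU as it did, with medians of -0.33 beside -0.46 in *WT* cells and -0.31 beside -0.20 in KO cells. Those of *PMS2* rose in *WT* cells (0.26 beside 0.15). For *TDG*, *SMUG1* and *XRCC1* the medians in *WT* cells had the opposite sign (-0.16, -0.09 and 0.35 beside 0.13, 0.50 and -0.16). A part of the region in these changes was not tested. *APEX1* shares 92 exon bases with *PIP4P1*, whose change with 5-FU was -0.07 in *WT* and -0.07 in KO cells.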

How the data were processed

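The authors sequenced HCT116 RNA and used CLC Genomics Workbench for mapping (GRCh38) and for counting on ENSEMBL genes. The deposited files hold raw counts per gene symbol, 1 file per library, with no normalization by the authors, and 12 libraries were grouped by their titles. The file labelled *WT* 5-FU replicate 1 repeats *WT* DMSO replicate 3 and was left out, which leaves 11. The 16123 of 60580 genes that reached 20 counts in any library were scaled by upper quartile (factors 0.955 to 1.05) and tested in edgeR (4.0.16, R 4.3.3; glmQLFit and glmQLFTest, two-sided, 1 mean per group, no block) with Benjamini-Hochberg adjustment over all genes (FDR). A gene was called at FDR under 0.05 and a fold over 1.5. The common biological coefficient of variation was 6.718%. CPM and TPM-like levels were computed from the same counts. The test was checked on simulated counts.

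The authors' RUVg step does not name its control genes and was run as an alternative, beside TMM factors, DESeq2 (1.42.0) and its size factors, other filters, glmTreat, a replicate block, fits of only the compared groups and fits without each library. Lists of repair and S phase genes, promoter words and seed matches were searched as spelled out in the text, and the 8 genes are all named. Of the 2 repair lists, the 3 called genes of largest change per comparison are named, and for each of the 8 the 3 genes of highest Pearson correlation. Members and lists were chosen with earlier results of these data known. Positions, lengths and UTRs are from GENCODE (GRCh38), promoters and miRNAs from RefSeq. Not every mismatch repair gene is reported here. With 22831415 counts or more per library, each of the 8 genes had at least 228 counts in every library.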

Additional observations from a re-analysis of the deposited data

Results flagged for a closer look

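The response to 5-FU differed between the genotypes at an edgeR FDR under 0.05 for 4 of the 8 genes, by the interaction term. The term was positive for 2 of them, beside 10.1% of all genes tested, and negative for 2, beside 16%. *UNG* fell less in KO than in *WT* cells, by a difference of 0.7445 on the log2 scale (FDR = 3.41e-06), and *MSH6* likewise by 0.6164 (FDR = 4.11e-05). *APEX1* fell more in KO cells, with a difference of -0.2805 (FDR = 0.007). *SMUG1* rose in *WT* cells and its difference was -0.3335 (FDR = 0.0375), which is short of 1.5-fold. The FDR was no longer under 0.05 in 14 of the 20 alternative fits for *SMUG1* and in 2 of the 20 for *APEX1* (with 1 RUVg factor and with the repeated file kept under its label). For *UNG* and *MSH6* this was so in 1 of the 20 each, the fit that keeps the repeated file under its label. *MSH6* was also short of 1.5-fold with 1 RUVg factor (0.4308), without *WT* 5-FU replicate 2 (0.5453) and without KO 5-FU replicate 1 (0.5841).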

How the results depend on the processing

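Of the 40 log2 fold changes (8 genes in 5 comparisons), none changed direction with TMM factors, DESeq2's size factors, DESeq2, no filter or a replicate block. For 5-FU in KO cells the number of called members went from 2 to 1 (*APEX1*) with TMM factors, DESeq2's size factors, DESeq2, no filter, the repeated file kept and glmTreat, and ranged from 1 to 2 without single libraries. For the genotypes with DMSO it went from 0 to 1 (*UNG*) with DESeq2's size factors and DESeq2. In the interaction it ranged from 1 to 2 without single libraries and was 0 with glmTreat. Without a minimum fold the counts were 4 and 6 for the genotypes with DMSO and 5-FU, 6 and 4 for 5-FU in *WT* and KO cells, and 4 for the interaction. Of all genes tested, 24.5% were then higher and 21.9% lower for the genotypes with DMSO, and 21.6% and 28% with 5-FU. For 5-FU these shares were 31.9% and 28.3% in *WT* cells and 26.6% and 33.8% in KO cells, and for the interaction 10.1% and 16%. With the repeated file kept under its label, 5-FU in *WT* cells and the interaction had 0 called members. Of all genes, 0 were then called for 5-FU in *WT* cells, and 185 higher and 243 lower in the interaction. In that fit the genotypes with 5-FU differed by -0.3224 for *UNG*, -0.2969 for *MSH6* and -0.0158 for *XRCC1*, each a change of sign.

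With 1 RUVg factor, 98.2% of whose variance lay between the treatments, 0 members were called for 5-FU in either genotype and 1 (*UNG*) in the interaction. For 5-FU that fit called 3 of all genes higher and 0 lower in *WT* cells, and 1 higher and 0 lower in KO cells. At FDR under 0.05 alone it also lost *MSH6* (FDR = 0.55), *APEX1* (0.419) and *MBD4* (0.579) for the genotypes with DMSO and *APEX1* (0.164) and *SMUG1* (0.515) in the interaction. There the 5-FU changes in *WT* and KO cells became 0.3977 and 0.8285 for *MSH6* and -0.5024 and -0.7199 for *SMUG1*, that of *XRCC1* in KO cells -1.4735, its difference between the genotypes with 5-FU -0.0639, the interaction of *TDG* -0.1772 and the difference of *PMS2* with DMSO 0.1111. Apart from those with the repeated file kept, the other changes of sign were in *PMS2*, *XRCC1* and *TDG*. *PMS2* between the genotypes with DMSO was at 0.0135 with at least 20 counts in every library, at 0.0079 with only the compared groups, and from -0.0166 to 0.0133 without single libraries (0.0001, 0.0008 and 0.0125 among them), and with 5-FU in KO cells at -0.0025 with that filter and from -0.0141 to 0.0362 without single libraries. Without single libraries, *XRCC1* ranged from -0.1056 (-0.0490 in another fit) to 0.1461 between the genotypes with 5-FU and from -0.0220 to 0.0713 with 5-FU in KO cells, and *TDG* from -0.0658 to 0.3006 with 5-FU in *WT* cells and from -0.0513 to 0.3171 in the interaction. A fit that leaves *WT* 5-FU with 1 library assumes that it varies like the other groups.

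Samples with the same number did not deviate together (15 pairs, r from -0.0914 to 0.0782). Deviations from the mean of 2 or 3 libraries are tied to each other, so that these low values cannot exclude a pairing by number. The replicate block left the called members at 0, 0, 2, 2 and 2, and *UNG* was at -0.56 between the genotypes with DMSO. At FDR under 0.05 alone the block lost *PMS2* for 5-FU in *WT* cells (FDR = 0.0738) and added *TDG* (0.0383) and *XRCC1* (0.0467) for the genotypes with DMSO. Numbering *WT* 5-FU by the file headers, chosen after seeing the data, gave the same numbers of members called with both thresholds. At FDR under 0.05 alone it also lost *PMS2* (0.0909), and *SMUG1* in the interaction (0.0723), and did not add *TDG* or *XRCC1*. The cause of these differences between settings was not tested.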
